A study of Mus musculus with 8 samples.

Results

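The steroid hormone receptor axis was described here through 9 genes, taken by name out of the 49671 genes in each deposited count file: the receptors Pgr, Esr1, Esr2 and Gper1, the estrogen-responsive gene Greb1, the estrogen-metabolizing enzymes Cyp1b1 and Hsd17b4, and the coactivators Ncoa1 and Ncoa3. Polyadenylated RNA was sequenced from mouse cells called adipocytes in the labels, with 4 libraries labelled BMPR2 DELX, from mice mutant for the type II bone morphogenetic protein (BMP) receptor, and 4 labelled ROSA, from the control mice. The labels name no strain, age, sex, promoter, inducing agent or deleted part of the receptor, and they do not say whether the libraries came from separate animals, so the errors measure the spread between these libraries. The series holds 1 comparison, BMPR2 DELX against ROSA. The 9 genes were chosen by name with their fold changes in that comparison in view, so their values in it are descriptions, no p-value is given for them and no support is drawn from them.

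Steroid receptors are transcription factors that bind a hormone, pair up on short palindromic DNA elements and recruit coactivators of the Ncoa (p160) family to the promoter. Estradiol acting through the estrogen receptors encoded by Esr1 and Esr2 is known to induce Pgr, the progesterone receptor gene, and Greb1, a receptor cofactor, in the breast and the uterus. In adipose tissue, Esr1 is the main nuclear estrogen receptor, and estrogens are known to influence where fat is laid down.

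The libraries held 28799445 to 43684785 gene counts each, and levels are CPM, counts per 1000000 gene counts, scaled by the trimmed mean of M values (TMM). The adipocyte label was not borne out by the defining markers: of 12 adipocyte genes, 7 stayed below 1 CPM in every library, and Adipoq, the adiponectin gene, had at most 0.169 CPM. The sum of all 12 was 297 to 358 CPM in BMPR2 DELX and 250.4 to 281 CPM in ROSA. Most of it was Lpl, the lipoprotein lipase gene and the 1 gene of the list called higher by edgeR (172 to 246 against 119 to 160 CPM). DESeq2 called 2 genes of the list higher and voom 1. Without Lpl the sums overlapped, at 90.5 to 127 and 115 to 140 CPM. The summed fibroblast markers, led by Col1a1 and Col1a2, ran from 9448 to 14110 CPM and the summed smooth muscle markers from 9910 to 15500 CPM, and both ranges overlapped between the groups. Every library had the pattern of male cells, with 65.9 to 102 CPM of the Y-linked Ddx3y and at most 0.0655 CPM of Xist, the RNA that coats the inactive X chromosome. Summed macrophage markers were higher in each BMPR2 DELX library (37.4 to 70.1 CPM) than in ROSA (24.98 to 36.4 CPM). Of the 10 genes 4 were tested, all 4 at a positive log2 fold change (median 1.11). By edgeR 1 was called (Cd68, higher), and DESeq2 called 3 higher and voom 1. The mesothelial sum was 69.6 to 84.5 against 91.2 to 136 CPM. By edgeR 1 of 8 genes was called (Upk1b, lower), by DESeq2 and voom 2 each (lower), and 3 of 8 had a positive log2 fold change. The pan-leukocyte gene Ptprc stayed below 0.60 CPM. Epithelial sums overlapped, at 23.0 to 57.7 and 33.1 to 49.5 CPM, but the genes differed in direction. Krt19, the gene with the highest mean, had 7.57 to 20.4 CPM in BMPR2 DELX and 22.4 to 30.7 CPM in ROSA. Without it the sums were 10.9 to 50.2 and 5.32 to 18.8 CPM. Of 8 tested epithelial genes, 6 had a positive log2 fold change, with a median of 1.07. By edgeR 1 was called (higher), while DESeq2 called 2 higher and 1 lower, and voom 0 higher and 1 lower. The endothelial sum was lowest in BMPR2 DELX 3, at 307 CPM against 571 to 1355 CPM in the other libraries. The part of these cell types in the results below was not tested, and in bulk RNA a change in the number of cells of a type and a change in RNA per cell cannot be told apart.

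RefSeq promoter windows on GRCm38.p6, from 250 bases before to 50 bases after a start site, were found for 7 of the 9 genes. The 250 bases upstream of the start are shown for the 4 genes that were higher in BMPR2 DELX, at the start site that is also the first base of an annotated GENCODE transcript. Capitals mark exact matches, on either strand, of GGTCA, the core of the estrogen response element, and of the TATA box TATAAA.
Pgr (chr9:8899583-8899832, plus strand): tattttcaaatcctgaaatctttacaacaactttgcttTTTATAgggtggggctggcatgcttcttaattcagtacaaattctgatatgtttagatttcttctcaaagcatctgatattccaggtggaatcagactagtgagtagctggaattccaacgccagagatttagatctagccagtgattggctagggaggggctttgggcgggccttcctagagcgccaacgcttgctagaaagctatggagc
Greb1 (chr12:16800887-16801136, minus strand): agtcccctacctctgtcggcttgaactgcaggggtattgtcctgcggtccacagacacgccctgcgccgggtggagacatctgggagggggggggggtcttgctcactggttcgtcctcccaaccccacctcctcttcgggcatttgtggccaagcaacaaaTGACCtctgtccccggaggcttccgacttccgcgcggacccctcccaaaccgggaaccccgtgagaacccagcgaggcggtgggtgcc
Esr1 (chr10:4611739-4611988, plus strand): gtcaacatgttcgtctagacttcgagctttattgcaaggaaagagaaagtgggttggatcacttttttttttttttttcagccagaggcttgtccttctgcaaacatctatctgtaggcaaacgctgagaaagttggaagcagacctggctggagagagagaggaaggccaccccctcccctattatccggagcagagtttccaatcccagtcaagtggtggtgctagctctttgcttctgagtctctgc
Cyp1b1 (chr17:79715062-79715311, minus strand): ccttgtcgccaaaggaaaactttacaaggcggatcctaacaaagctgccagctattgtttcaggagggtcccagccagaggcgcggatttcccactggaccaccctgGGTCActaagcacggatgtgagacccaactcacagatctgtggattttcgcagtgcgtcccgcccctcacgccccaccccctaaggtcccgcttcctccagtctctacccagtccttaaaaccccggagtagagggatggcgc

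None of the 9 windows of these genes held a full estrogen response element, written as GGTCA, any 3 bases and TGACC, which was present in 0.0700% of all 32851 RefSeq windows. None held the element shared by the progesterone and glucocorticoid receptors either, GNACA, any 3 bases and TGTNC, found in 0.475% of windows. The GGTCA core, counted also where it lay inside a longer element, occurred in 40.5% of all windows. It was found at position -88 of the Greb1 start shown above, at -194 and -85 of a second RefSeq start of Greb1, at -143 for Cyp1b1, at -238 and -75 for Esr2 and, beyond the bases shown, at 16 bases into Esr1. The Pgr window had no GGTCA and a TATAAA on the reverse strand at -212, a motif present in 13.6% of windows and, among the other genes, at -29 of Gper1. Positions give the leftmost base of a match, with the start site as 1. The Pgr window was poorer in G and C (43.7%) than the median window (52.7%). The window of the Greb1 start shown above (65.3%), that of Cyp1b1 (58.3%) and above all that of the coactivator Ncoa1 (84.7%) were richer. The window of the second Greb1 start had 46.3%, and the Esr1 windows had 46.3% and 59.3%. These matches are a description of the windows alone.

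Levels of different genes were compared per kilobase of annotated exon (RPKM). In ROSA, Cyp1b1, an oxidase that hydroxylates estradiol, stood highest at 47.2 ± 6.32 RPKM (SD, n = 4 here and throughout), followed by the peroxisomal enzyme Hsd17b4 at 20.2 ± 0.767, Ncoa3 at 8.17 ± 0.363 and Ncoa1 at 2.59 ± 0.233 RPKM. The ranges of these neighbours did not overlap. Greb1, Pgr and Esr1 followed at 0.696 ± 0.3398, 0.665 ± 0.365 and 0.398 ± 0.111 RPKM, and the ranges of neighbours in this order overlapped. Gper1 and Esr2 came last, at 0.0430 and 0.0234 RPKM. In BMPR2 DELX the outer ranks were the same, but Pgr, at 2.93 ± 0.592 RPKM, took the place above Ncoa1 (2.53 ± 0.157) and Greb1 (2.14 ± 0.456), each overlapping its neighbour. Esr1, at 0.704 ± 0.0814 RPKM, lay below all 3.

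**Figure D1:**
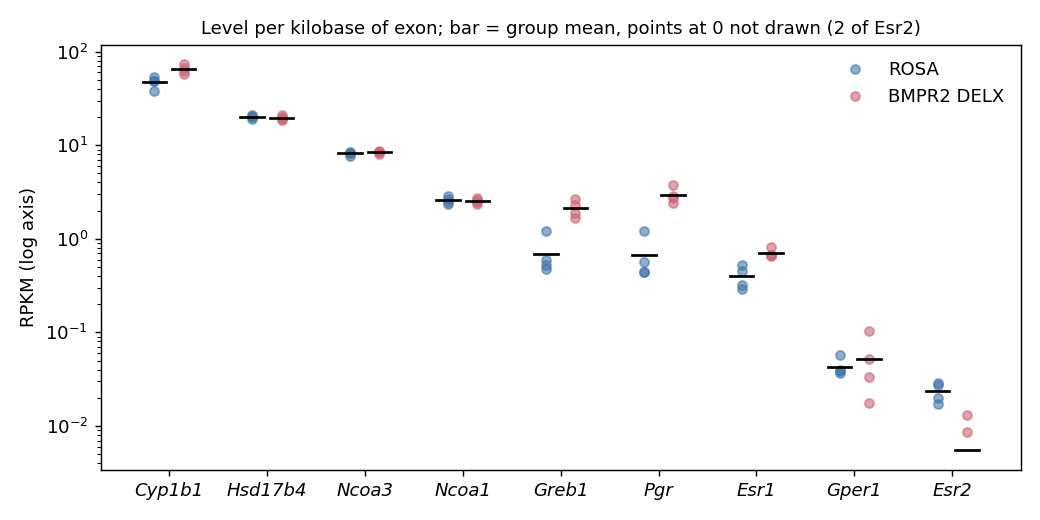
Level of the 9 genes in each library in RPKM on a log axis, ordered by the ROSA mean, with a point per library and a bar at each group mean. Cyp1b1 is highest in both groups, Pgr and Greb1 move from below 1 RPKM on average in ROSA to above 2 RPKM in BMPR2 DELX, and Gper1 and Esr2 lie near the limit of detection.

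Of the 9 genes, 7 had enough counts for the test across all genes, and Esr2 and Gper1 did not. Of those 7, 4 were called higher by edgeR at an adjusted p below 0.05 and 0 lower, against 9.10% of all 14887 tested genes called in either direction, 3.96% higher and 5.15% lower. The groups did not overlap for the same 4 genes, Pgr, Esr1, Greb1 and Cyp1b1, against 18.0% of all tested genes, 8.32% with BMPR2 DELX above ROSA and 9.65% with it below. The comparison was in view when the genes were chosen, so nothing is read from these shares. The remaining 3, Hsd17b4, Ncoa1 and Ncoa3, did not pass.

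Pgr encodes the progesterone receptor (ENSMUSG00000031870, GRCm38 chromosome 9, 8899833 to 8968611). It had 23.2, 20.6, 32.3 and 24.2 CPM in BMPR2 DELX 1 to 4 and 4.85, 3.81, 3.76 and 10.3 CPM in ROSA 1 to 4. BMPR2 DELX 3 was the highest library and ROSA 4 stood above the other controls, yet at 10.3 CPM it was still well below the lowest mutant library. The mean rose from 5.68 ± 3.12 to 25.1 ± 5.06 CPM, a log2 fold change of 2.14 ± 0.33 (SE), or 4.41-fold, the 23rd largest rise among the tested genes. The call held in 8 of 8 fits that left out 1 library, with a log2 fold change from 1.99 without ROSA 3 to 2.60 without ROSA 4. It was lost when ROSA 1 and ROSA 2 were left out together, at 1.84.

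Esr1 encodes estrogen receptor alpha (ENSMUSG00000019768, chromosome 10, 4611593 to 5005614). It had 8.90, 9.16, 11.3 and 9.12 CPM in BMPR2 DELX 1 to 4 and 3.98, 4.39, 7.18 and 6.22 CPM in ROSA 1 to 4. All mutant libraries were above all controls, but ROSA 3 and ROSA 4 came closer to them than ROSA 1 and ROSA 2 did. The mean was 9.61 ± 1.11 against 5.44 ± 1.51 CPM, and the log2 fold change of 0.82 ± 0.19 (SE) was 1.77-fold. The call was lost in 4 of 8 fits without 1 library, namely BMPR2 DELX 2, BMPR2 DELX 3, ROSA 1 or ROSA 2, with values between 0.71 and 0.98 in the 8 fits, and it was also lost without the pair ROSA 1 and ROSA 2, at 0.54.

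The other estrogen receptors were barely detected. Esr2, estrogen receptor beta, had 0, 0, 1 and 2 counts in BMPR2 DELX 1 to 4 and 3, 4, 2 and 2 counts in ROSA 1 to 4. Gper1, a G protein-coupled receptor that responds to estradiol, had 4, 3, 9 and 2 counts in BMPR2 DELX and 3, 4, 3 and 5 counts in ROSA. A count of 0 allows up to 3 counts, or 0.0670 to 0.0998 CPM in these libraries, so no difference in Esr2 or Gper1 could be read at this depth. This limit covers counting error only. Of the reads over Gper1, 21.4% lay on the other strand, against 1.23% to 3.08% for the 7 tested genes.

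Greb1 (ENSMUSG00000036523, chromosome 12, 16670615 to 16800886), a chromatin-bound estrogen receptor cofactor and a classical estrogen-induced gene, had 16.0, 17.9, 25.8 and 22.1 CPM in BMPR2 DELX 1 to 4. In ROSA 1 to 4 it had 5.63, 4.54, 4.99 and 11.5 CPM. As with Pgr, the groups were apart, BMPR2 DELX 3 was the highest and ROSA 4 lay above the other controls. The mean rose from 6.66 ± 3.26 to 20.5 ± 4.37 CPM, with a log2 fold change of 1.62 ± 0.30 (SE), or 3.07-fold. The call was lost without ROSA 1 (1.56), without ROSA 2 (1.48), without the pair ROSA 1 and ROSA 2 (1.32), without the pair BMPR2 DELX 3 and ROSA 3 (1.38) and with no count filter (1.64), and the value was 2.02 without ROSA 4.

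Cyp1b1 (ENSMUSG00000024087, chromosome 17, 79701537 to 79715061), a cytochrome P450 that forms catechol estrogens and is induced through the aryl hydrocarbon receptor, had 431, 362, 392 and 338 CPM in BMPR2 DELX 1 to 4. It had 310, 285, 224 and 284 CPM in ROSA 1 to 4, so the lowest mutant and the highest control library were close. The log2 fold change was 0.47 ± 0.11 (SE), or 1.38-fold, from 276 ± 36.9 to 381 ± 40.3 CPM. The call was lost in 4 of 8 fits without 1 library (BMPR2 DELX 1, 2 or 3, or ROSA 2), with values from 0.38 to 0.54, and without either pair of libraries, at 0.60 and 0.36. Cyp1a1, another target of the aryl hydrocarbon receptor, had 0.499 to 2.43 CPM in the mutant libraries and 0.532 to 3.16 CPM in the controls, a log2 fold change of -0.26 ± 0.58 (SE, adjusted p 0.82 by edgeR).

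Hsd17b4 (ENSMUSG00000024507), which oxidizes estradiol to estrone and takes part in peroxisomal fatty acid oxidation, was even across the libraries, with 63.9, 67.9, 64.6 and 71.0 CPM in BMPR2 DELX against 70.8, 68.4, 65.3 and 70.7 CPM in ROSA. Its log2 fold change was -0.04 ± 0.06 (SE). The coactivator Ncoa1 (SRC-1, ENSMUSG00000020647) had 21.2, 20.1, 23.2 and 22.4 CPM in BMPR2 DELX against 24.7, 21.4, 20.1 and 22.9 CPM in ROSA, a log2 fold change of -0.03 ± 0.08 (SE). Its sign turned with upper-quartile scaling (0.0048). The coactivator Ncoa3 (SRC-3, ENSMUSG00000027678) had 66.01, 68.3, 64.3 and 66.5 CPM in BMPR2 DELX against 67.3, 60.5, 65.2 and 65.1 CPM in ROSA, a log2 fold change of 0.04 ± 0.06 (SE). The groups overlapped for all 3 genes, and their variation between libraries of a group was small, with coefficients of variation of 2.497% to 8.999%, against 10.6% to 55.0% for the 4 called genes.

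**Figure D2:**
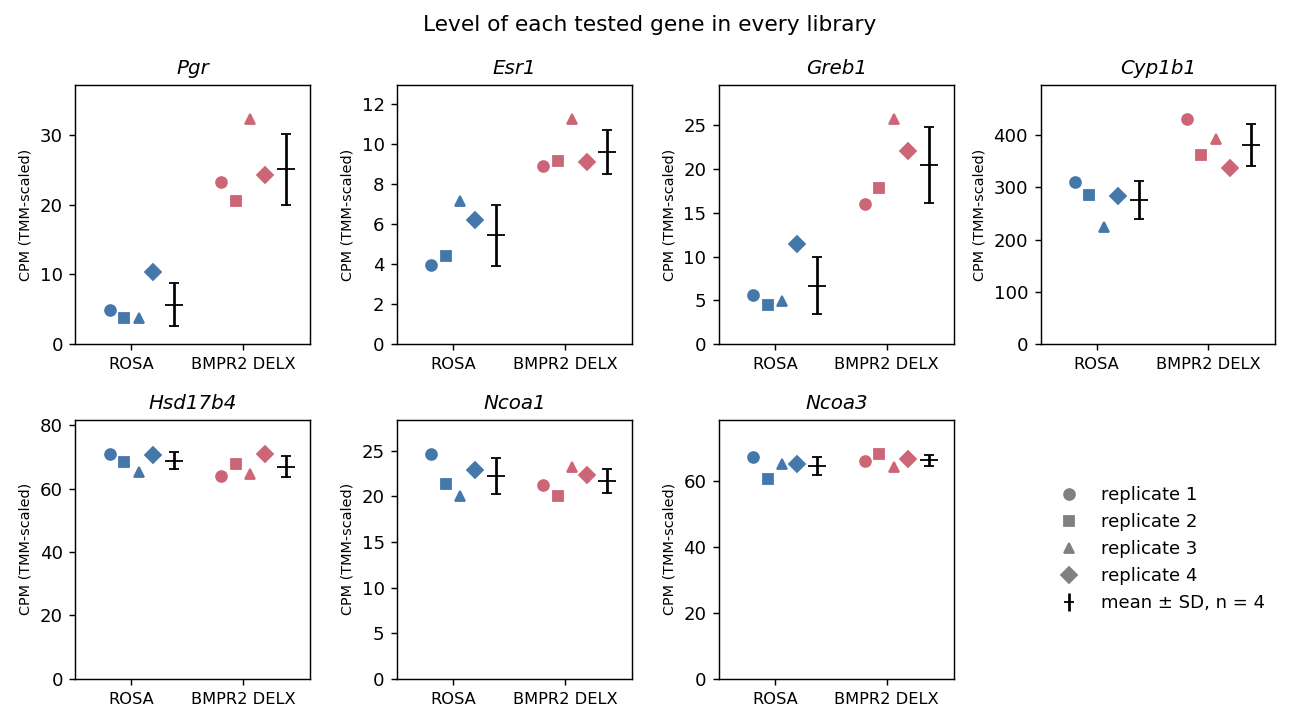
TMM-scaled CPM of the 7 tested genes, with 1 panel per gene, a marker shape per replicate number and the mean ± SD (n = 4) beside each group. The 2 groups are apart for Pgr, Esr1, Greb1 and Cyp1b1, with ROSA 4 (diamond) above the other controls in Pgr and Greb1, and overlap for Hsd17b4, Ncoa1 and Ncoa3.

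**Figure D3:**
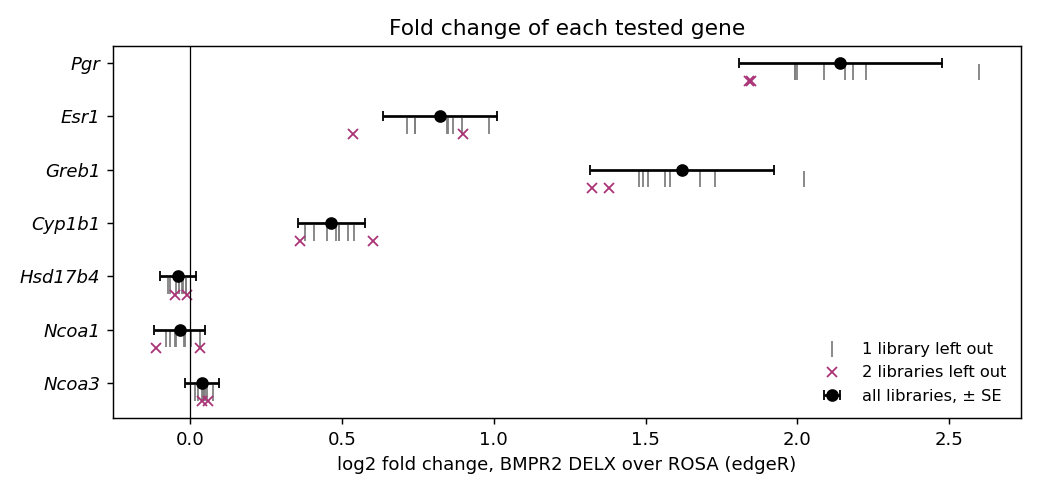
Log2 fold change of BMPR2 DELX over ROSA for the 7 tested genes, with SE bars, ticks for each fit without 1 library and crosses for the fits without 2 libraries. Pgr stays between 1.84 and 2.60, Greb1 between 1.32 and 2.02, and the enzyme Hsd17b4 and the coactivators stay close to 0.

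Within the control group, Pgr and Greb1 moved with the library. ROSA 4 had the highest level of both, 2.74 and 2.53 times that of the lowest control, whereas Esr1 was highest in ROSA 3 (1.81 times the lowest) and Cyp1b1 in ROSA 1 (1.39 times). ROSA 4 was the highest control for 45.3% of all genes called higher in BMPR2 DELX, against 25.9% of all tested genes, so its position in Pgr and Greb1 was shared by many called genes. In BMPR2 DELX, Pgr, Esr1, Greb1 and Ncoa1 were each highest in BMPR2 DELX 3, which was the highest mutant library for 37.5% of genes called higher and for 24.0% of all tested genes. Of all 8 libraries it had the lowest endothelial sum and the highest fibroblast (14110 CPM), macrophage (70.1 CPM) and epithelial (57.7 CPM) sums, and the part of these in the result was not tested.

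Ratios of levels per length, which need no scaling between libraries, were also taken. Pgr stood at 4.17, 3.59, 4.58 and 4.25 times Esr1 in BMPR2 DELX 1 to 4 and at 1.95, 1.39, 0.836 and 2.65 times in ROSA 1 to 4, so the groups were apart. The ratio of Pgr to Greb1 was 1.38 ± 0.175 in BMPR2 DELX and 0.939 ± 0.0682 in ROSA, and the groups were again apart. The ratio of Greb1 to Esr1, 3.02 ± 0.413 against 1.78 ± 0.709, and that of Ncoa3 to Ncoa1, 3.33 ± 0.285 against 3.16 ± 0.253, overlapped between the groups.

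Over the 8 libraries, the likeness of each tested gene to Pgr was taken as the root mean square difference of log2 CPM after centring each gene. The most similar profile was that of Gm16485 (difference 0.168), an unspliced protein-coding gene model on the same strand that begins 3180 bases past the annotated end of Pgr. Gm16485 had 2.26, 1.64, 3.79 and 2.12 CPM in BMPR2 DELX 1 to 4 and 0.342, 0.291, 0.266 and 0.905 CPM in ROSA 1 to 4, so that ROSA 4 and BMPR2 DELX 3 were the highest of their groups and ROSA 3 and BMPR2 DELX 2 the lowest, as for Pgr. Whether its reads came from Pgr transcripts that extend past the annotated end was not tested, as gene counts hold no read positions. The genes that came next were the matrix proteoglycan Ogn (0.231), the collagen Col14a1 (0.267), the secreted protein Lgi2 (0.273) and Greb1 itself (0.303), which put Greb1 in position 5 among the tested genes. Esr1 held position 224, Cyp1b1 position 813, and Ncoa3, Ncoa1 and Hsd17b4 positions 5803, 6745 and 7550.

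The 5 profiles nearest to Greb1 were those of the secreted matrix protein Spon2 (0.148), the stromal marker Islr (0.179), Ogn (0.193), the kinesin Kif21b (0.212) and Tmem86a (0.224), with Pgr in position 11. Each had its highest control level in ROSA 4, for example 6.42 CPM of Spon2 against 3.49 to 4.20 CPM in the other controls. The log2 fold changes of these genes lay between 1.58 and 1.89, and those of Gm16485, Ogn, Col14a1 and Lgi2 between 1.89 and 2.43. Matches of this kind share the group difference and the high control level in ROSA 4. BMPR2 DELX 3 was not the highest mutant library for each of them. Spon2 had 17.0 CPM there and 17.3 CPM in BMPR2 DELX 4, and Islr had 13.4 and 13.7 CPM. How much each library added to a match was not tested.

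**Figure D4:**
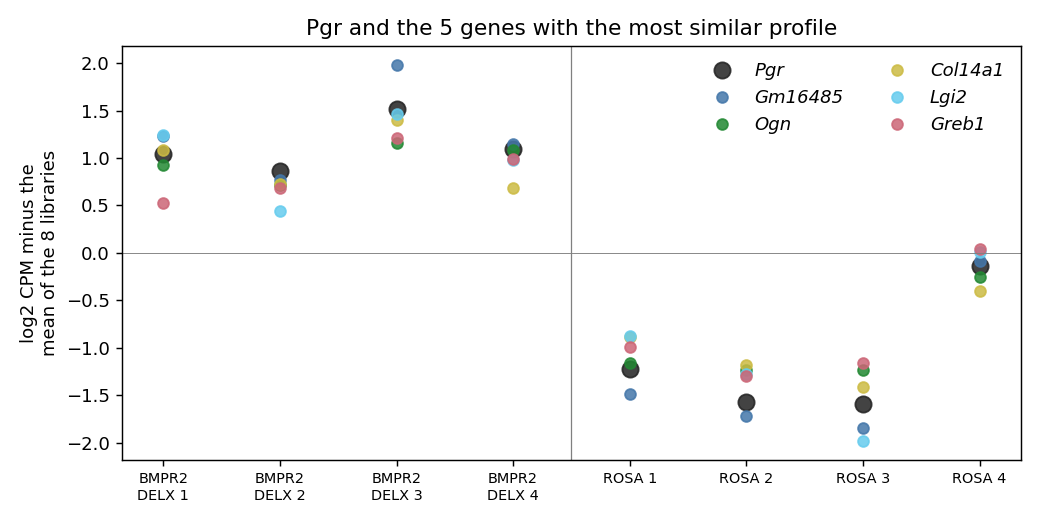
Log2 CPM of Pgr and of the 5 genes with the most similar profile, each minus its own mean over the 8 libraries. All 6 genes lie above 0 in each BMPR2 DELX library and below it in ROSA 1 to 3, and ROSA 4 lies closer to the mutant libraries than the other controls.

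The genes beside the 7 tested genes on the chromosome were looked up after the profile of Gm16485 was seen. Of the 8 nearest tested neighbours of the 4 called genes, 1 on each side, 1 was called (Gm16485), against 9.10% of all tested genes. Trpc6, before Pgr, had a log2 fold change of 0.33 ± 0.27 (SE), and Lpin1 and E2f6, beside Greb1, had 0.19 ± 0.11 and -0.21 ± 0.09 (SE). Armt1 and Syne1, beside Esr1, had 0.34 ± 0.12 and -0.34 ± 0.14 (SE), and Rmdn2 and Atl2, beside Cyp1b1, had -0.26 ± 0.11 and 0.02 ± 0.08 (SE). Sulf2, a protein-coding gene with 1229 to 3451 counts per library, shares 154 exon bases with Ncoa3 on the opposite strand. It was not counted as a neighbour. Zmynd8 and Prex1, taken as the neighbours of Ncoa3 that do not overlap it, lay 93620 and 493100 bases away. Both were called higher, at 0.30 ± 0.08 and 0.66 ± 0.16 (SE), with edgeR adjusted p of 0.045 and 0.036. The nearest tested genes of Hsd17b4 (Tnfaip8 and Srfbp1) and of Ncoa1 (Ptrhd1 and Itsn2) were not called.

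Other genes of steroid signalling, taken from lists of receptors, cofactors, chaperones, enzymes and targets that leave out the 9 genes, changed about as often as genes in general. Of 108 tested genes over 7 lists, 4 were higher and 6 were lower by edgeR, or 9.26% against the 9.10% of all tested genes, and their median log2 fold change was -0.08 against 0.0045 for all genes. Without the pair ROSA 1 and ROSA 2, 1 was higher (Cyp7b1) and 0 were lower, with 20 at an unadjusted p below 0.05 by edgeR. With all 8 libraries 36 were at that level. The share of all tested genes at that level is not given here, so nothing is read from these counts, pooled or per list.

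**Figure D5:**
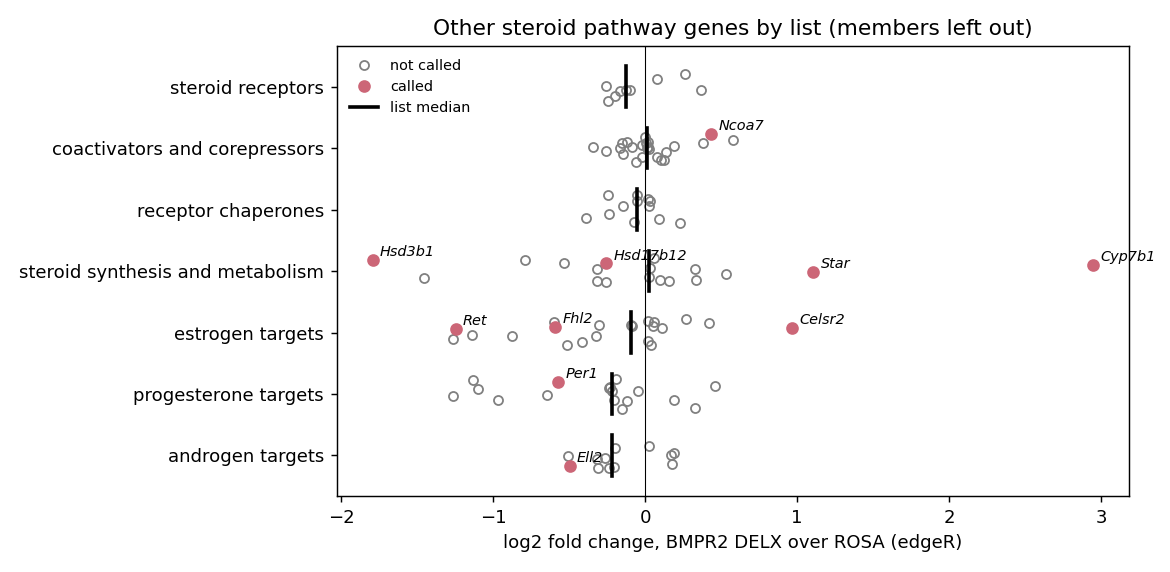
Log2 fold change of BMPR2 DELX over ROSA for the tested genes of each list, with called genes filled and named and a bar at each list's median. The called genes are spread over 5 of the 7 lists, from -1.79 for Hsd3b1 to 2.95 for Cyp7b1, and the receptor and chaperone lists hold none (0).

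Among the other receptors, 0 of 9 tested genes were called by edgeR, DESeq2 or limma voom, and 3 had an unadjusted p below 0.05 by edgeR. The glucocorticoid receptor gene Nr3c1 averaged 105 ± 9.43 CPM in the mutant libraries and 125 ± 14.2 CPM in the controls (adjusted p 0.11, edgeR). The progesterone-binding membrane protein Pgrmc1 had 188 ± 16.7 and 202 ± 13.6 CPM (adjusted p 0.45, edgeR), and Esrra, an orphan receptor related to the estrogen receptors, had 31.0 ± 2.06 and 29.4 ± 2.85 CPM (adjusted p 0.60, edgeR). The list median was -0.13. Among the membrane progestin receptors, Paqr7 had 7.28 ± 0.791 and 5.62 ± 1.30 CPM (adjusted p 0.20, edgeR). Paqr8 had 23.0 ± 3.16 and 25.8 ± 1.70 CPM (adjusted p 0.33, edgeR). Paqr5, Paqr6 and Paqr9 had at most 0.280 CPM and were not tested.

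Of 24 coactivators and corepressors, 23 did not pass, 1 was higher and 0 lower, with a median of 0.01. The higher gene was Ncoa7, an estrogen receptor coactivator with an oxidation-resistance domain, which rose by 0.44 ± 0.11 (SE) from 7.94 ± 0.832 to 10.7 ± 1.07 CPM, with an edgeR adjusted p of 0.041. That call was kept in 1 of 8 fits without 1 library. The p160 coactivator Ncoa2 stood at 0.10 ± 0.07 on the log2 scale and the corepressor Nrip1 at 0.02 ± 0.07 (SE), neither passing (adjusted p 0.41 and 0.89 by edgeR). At an unadjusted p below 0.05 there were 7 genes, 2 were higher and 1 lower with DESeq2, and 1 and 1 with voom. The chaperones that hold unliganded receptors gave 0 calls among 12 by edgeR, with 3 at an unadjusted p below 0.05, while DESeq2 called 2 lower and voom 1. Their median was -0.05.

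The list of steroid synthesis and metabolism had the widest spread, with 2 higher, 2 lower and 14 not passing of 18 tested genes and a median of 0.03. At an unadjusted p below 0.05 there were 7, and DESeq2 and voom each gave 2 higher and 3 lower. Cyp7b1, which hydroxylates oxysterols and the adrenal androgen precursor dehydroepiandrosterone, had 2.55, 2.23, 3.52 and 2.79 CPM in BMPR2 DELX 1 to 4 and 0.590, 0.291, 0.166 and 0.379 CPM in ROSA 1 to 4. The groups were far apart, and it rose by 2.95 ± 0.32 (SE), with an edgeR adjusted p of 0.0019. Star, which carries cholesterol to the inner mitochondrial membrane, had 9.43, 7.36, 13.3 and 10.5 CPM in BMPR2 DELX against 5.97, 4.54, 5.16 and 3.18 CPM in ROSA, a rise of 1.11 ± 0.22 (SE, edgeR adjusted p 0.018). Its call was lost without ROSA 2 (adjusted p 0.057, edgeR) and without either pair of libraries, whereas that of Cyp7b1 held in every alternative run.

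Hsd3b1, a 3-beta-hydroxysteroid dehydrogenase that makes progesterone from pregnenolone, had 0.589, 0.395, 0.734 and 0.737 CPM in BMPR2 DELX against 2.36, 2.45, 2.66 and 1.11 CPM in ROSA. It fell by 1.79 (SE 0.32, edgeR adjusted p 0.011), and ROSA 4 again lay nearest to the mutant libraries. Its close copy Hsd3b6 stood at -1.45 ± 0.63 on the log2 scale (SE, adjusted p 0.18 by edgeR), and the division of reads between such copies is uncertain. Hsd17b12, which acts in fatty acid elongation and on estrone, averaged 126 ± 7.26 CPM in the mutant libraries against 150 ± 7.91 CPM, fell by 0.26 (SE 0.06, adjusted p 0.039 by edgeR) and kept its call in 1 of 8 fits without 1 library. Cyp19a1, the aromatase that makes estrogens from androgens, never exceeded 2 counts, and Cyp17a1 and Hsd17b3, needed to make androgens, had 0 counts in all 8.

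Of 21 tested estrogen target genes other than Pgr and Greb1, 18 did not pass, 1 was higher and 2 lower, with a median of -0.09. At an unadjusted p below 0.05 there were 8, and the lower genes numbered 4 with DESeq2 and 3 with voom, each beside 1 higher. The LIM-domain coactivator Fhl2 went from 151 ± 7.89 to 100.1 ± 16.6 CPM and so fell by 0.59 (SE 0.11, adjusted p 0.014 by edgeR), and the receptor tyrosine kinase Ret went from 22.5 ± 6.12 to 9.44 ± 3.03 CPM and fell by 1.25 (SE 0.25, adjusted p 0.021 by edgeR). The adhesion receptor Celsr2 rose by 0.97 ± 0.26 (SE, edgeR adjusted p 0.047) to 1.24 ± 0.313 CPM, a call lost in each of 8 fits without 1 library. Ret lost its call in 3 of these fits and Fhl2 in 0. Target genes known from breast and uterus such as Tff1, Ltf and Pdzk1 were below the count filter.

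Of 17 progesterone target genes, 16 did not pass, 1 was lower and 0 higher, with a median of -0.22. At an unadjusted p below 0.05 there were 6, 1 was higher and 2 lower with DESeq2, and 1 and 1 with voom. The clock gene Per1 went from 46.3 ± 10.1 to 31.2 ± 3.22 CPM and fell by 0.57 (SE 0.15, adjusted p 0.042 by edgeR), with a call kept in 2 of 8 fits and a value of -0.28 without the pair ROSA 1 and ROSA 2. Of 12 androgen target genes, 11 did not pass, 1 was lower and 0 higher, with a median of -0.22, 3 at an unadjusted p below 0.05, and 2 lower by each of DESeq2 and voom. The elongation factor Ell2 went from 68.3 ± 7.13 to 48.5 ± 4.397 CPM, fell by 0.50 (SE 0.09, adjusted p 0.013 by edgeR), and passed in 8 of 8 fits without 1 library but in neither fit without a pair. Fkbp5, a receptor co-chaperone induced by progestins, androgens and glucocorticoids alike, was at -0.24 ± 0.11 on the log2 scale (SE, adjusted p 0.21 by edgeR).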

How the data were processed

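Raw read counts per Ensembl gene were used as deposited by the authors, 1 file per library. The aligner STAR (2.5.2b), HTSeq and the build GRCm38 are named, per the submitters' processing notes, without their roles. The files have the layout of STAR gene counts, and the annotation release is not given in the sources used here. The opposite-strand column, with 93.4% of strand-assigned counts, was used. The 4 lines that name no gene held 14.7% to 22.0% of the reads of a library and were left out. GENCODE M21 gave symbols, positions and exon lengths for 49412 gene IDs.

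Genes passing filterByExpr were tested in R 4.3.3 with the edgeR 4.0.16 quasi-likelihood test (TMM, robust dispersion, Benjamini-Hochberg threshold 0.05). The SE is the size of the log2 fold change divided by the square root of F. RPKM is TMM-scaled CPM per kilobase of exon union. Centred profiles used log2 CPM with a prior count of 2. Alternatives were DESeq2 1.42.0, limma 3.58.1 voom, other factors, filters and strand column, a replicate term and left-out libraries. Libraries of a group differed from each other by more than sampling noise.

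Members and lists were chosen with earlier results of these data known. Named genes were the members, up to 4 called genes per list by smallest p, and the 5 profiles nearest to each called member with an absolute log2 fold change over 1. Any other gene was named after its values were seen, and 1 listed receptor gene is not reported here by name. In simulated data with 14698 genes, edgeR found 25 of 66 genes changed by 0.5 (log2), 47 of 67 changed by 1 and 64 of 64 changed by 2, and 6.21% of calls were unchanged genes. Counts were drawn for each gene independently, with no effect shared by the genes of a library. These values therefore give no error rate for the calls in the real data. Figures were drawn with matplotlib 3.10.9.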

Additional observations from a re-analysis of the deposited data

Results flagged for a closer look

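Single libraries stood far from the others of their group in 4 of 42 gene or ratio values examined, by the gap to the nearest library as a share of the group's range. In independent groups of 4, chance alone does this in about 1 of 20. The values examined come from the same libraries and are not independent, so nothing is read from the number flagged. Pgr had 10.3 CPM in ROSA 4 against 3.76 to 4.85 CPM in the other controls, and Greb1 had 11.5 CPM in ROSA 4 against 4.54 to 5.63 CPM. Esr1 had 11.3 CPM in BMPR2 DELX 3 against 8.90 to 9.16 CPM in the other mutant libraries. The coactivator gene Ncoa7 had 12.3 CPM in BMPR2 DELX 1 against 9.94 to 10.3 CPM.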

How the results depend on the processing

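With all 8 libraries 589 genes were called higher and 766 lower. These counts were 1070 and 1228 with DESeq2, 64 and 108 without ROSA 1 and ROSA 2 together, and 222 and 409 without BMPR2 DELX 3 and ROSA 3 together, and ran from 213 to 545 and from 264 to 721 when 1 library was left out, lowest without ROSA 2. With upper-quartile factors 54.8% of calls were higher, against 43.5%. Voom called 755 genes higher and 882 lower, so DESeq2 and voom each called more genes than edgeR in both directions. Of the other steroid pathway genes, 4 were higher and 6 lower by edgeR. DESeq2 gave 6 higher and 14 lower, and voom 5 and 11. Without ROSA 1 and ROSA 2 together 1 was higher and 0 were lower, without BMPR2 DELX 3 and ROSA 3 together 1 and 3, and without 1 library 1 to 4 and 3 to 13. Cyp7b1 was among the calls in each of these fits. The cause of these shifts was not tested beyond the smaller number of samples.

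The call of Pgr was lost in 1 of 18 alternatives, without ROSA 1 and ROSA 2 together (1.84). Esr1 lost it in that fit (0.54) and in 4 that left out 1 library (0.71 to 0.98 over the 8). Greb1 lost it in that fit (1.32), without BMPR2 DELX 3 and ROSA 3 together (1.38), with no count filter (1.64) and in 2 that left out 1 library (1.48 to 2.02). Cyp1b1 lost it without either pair (0.60 and 0.36) and in 4 that left out 1 library (0.38 to 0.54). Ncoa1 turned positive with upper-quartile factors (0.0048), without ROSA 1 and ROSA 2 together (0.032), without BMPR2 DELX 2 (0.0012) and without ROSA 1 (0.033), and ran from -0.081 to 0.033 over the fits without 1 library. With the unstranded column the mean was 71.8 CPM for Hsd17b4 in ROSA, 68.8 CPM for Ncoa3 in BMPR2 DELX and 0.152 CPM for Gper1 in ROSA, each over 1 SD from the main value.

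Libraries with the same replicate number were treated as sharing only a number: their deviations from the group means correlated at 0.0050, 0.21, 0.25 and 0.094 for numbers 1 to 4, and the best match had the same number for 2 of 4. On the second principal component, libraries 1 and 2 were positive (11.4 to 22.9) and libraries 3 and 4 negative (-29.4 to -6.38) in both groups, and whether this reflects a shared origin was not tested. With the replicate block all 4 called members stayed called, and 2 other pathway genes were higher. The block ended the calls of Ncoa7 (adjusted p 0.061, edgeR), Celsr2 (0.056), Hsd17b12 (0.073) and Per1 (0.071), while Myc and Trim24 were called. Low counts limit Esr2 and Gper1.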
